A study of Mus musculus with 18 samples.

Results

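The Serpina3 genes are a family of serine protease inhibitors that lie side by side on mouse chromosome 12. Of 14 Serpina3 loci that RefSeq lists there, 7 had a row in the deposited table of 14391 genes. The 6 described here, Serpina3f, Serpina3g, Serpina3h, Serpina3i, Serpina3m and Serpina3n, were taken by name from that table, and the remaining gene, Serpina3c, is given beside them. Every gene of the table reached 1 CPM (reads scaled to a common total for each library) in at least 3 libraries. Serpina3m was the member nearest to that limit, with 2.27 CPM in the lowest of its 3 highest libraries.

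A serpin offers a protease a loop that looks like a substrate. When the protease cuts the loop, the serpin springs into a new shape and holds the enzyme in a covalent complex, so that both molecules are used up. In humans, SERPINA3 encodes alpha-1-antichymotrypsin, a plasma protein of the acute phase response, and in mice the locus has expanded into a cluster of genes. The liver is the classical source, where IL-6 family cytokines acting through STAT3 induce acute phase genes, and mouse fibroblasts, astrocytes and immune cells also switch on members of the cluster in inflammation.

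RNA was sequenced from wild-type mouse tendon fibroblasts in 18 libraries, 3 for each of 6 groups. Neonatal cells had received supernatant of stimulated neonatal T cells, supernatant of stimulated adult T cells, or T cell medium alone, and adult cells had received the same 3 additions. Per the labels' protocols, the cells were digested out of 3 neonatal or 4 adult tendons per well, passaged, frozen and thawed, and the thawed cells were cultured for 3 days before 1 ml of the addition was mixed with 1 ml of complete medium. The labels leave out ages, sex, strain, the duration of treatment and the way the T cells were stimulated. They also do not say whether replicate libraries stem from separate mice or wells, so the p-values below measure the spread between these libraries, which may be technical.

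The libraries held an estimated 12.66 to 17.75 M counted reads, at which 3 reads are worth 0.169 to 0.237 CPM. Replicates correlated at 0.958 to 0.982 across genes. All 10 tendon fibroblast markers on a list (Scx, Tnmd, Mkx, Col1a1 and others) were measured, with summed levels of 9720 to 32000 CPM in the 18 libraries. Col1a1 and Col1a2 held most of that sum, at 5856 to 21750 and 3199 to 10210 CPM. Scx was at 127.1 to 383.7 CPM in neonatal and 2.039 to 19.44 CPM in adult cells, and Tnmd at 1.439 to 18.13 CPM. Of 10 hepatocyte markers, 1 (Apob) had a row, at 0.797 to 6.3 CPM. Among the media controls, neonatal-cell library 1 and adult-cell library 2 stood apart in 20 type I interferon genes, with a mean of 3.12 and 3.03 log2 CPM against 0.01 to 1.43 in the other media libraries.

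Upstream sequence was available from RefSeq (GRCm38.p6, another build than the GRCm39 of the counts) for 4 of the 6 members, as windows of 250 bases before to 50 bases after the annotated start. The windows of Serpina3g and Serpina3n are shown because these were the most abundant members. In the Serpina3g window, chr12:104235897-104236196 on the plus strand, the capitals mark a match to the NF-κB motif and, after it, a match to the STAT motif TTCNNNGAA.
Serpina3g: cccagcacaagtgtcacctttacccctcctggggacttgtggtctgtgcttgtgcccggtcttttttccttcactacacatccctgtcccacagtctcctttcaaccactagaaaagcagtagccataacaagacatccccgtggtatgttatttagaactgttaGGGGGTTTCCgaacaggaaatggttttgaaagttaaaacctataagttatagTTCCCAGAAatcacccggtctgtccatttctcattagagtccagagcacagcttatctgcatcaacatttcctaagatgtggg
In the Serpina3n window, chr12:104406458-104406757 on the plus strand, no motif searched was matched, and no base is in capitals.
Serpina3n: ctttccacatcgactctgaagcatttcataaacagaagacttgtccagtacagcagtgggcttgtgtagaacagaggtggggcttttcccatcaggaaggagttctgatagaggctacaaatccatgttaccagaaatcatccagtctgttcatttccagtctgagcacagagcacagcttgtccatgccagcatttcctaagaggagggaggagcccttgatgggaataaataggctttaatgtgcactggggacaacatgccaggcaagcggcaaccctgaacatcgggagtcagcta

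A stretch of 33 bases from each window is set side by side because a 9-base element in it differs among the 4 members with a window. Capitals mark the 9 bases that align with the STAT match of Serpina3g, and Serpina3c, the measured gene of the cluster that is no member, is added.
Serpina3f: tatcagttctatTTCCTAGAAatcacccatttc
Serpina3g: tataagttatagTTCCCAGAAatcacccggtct
Serpina3i: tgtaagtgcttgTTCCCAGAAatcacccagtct
Serpina3n: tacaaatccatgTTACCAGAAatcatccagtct
Serpina3c: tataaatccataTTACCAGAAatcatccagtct
The Serpina3f stretch is chr12:104214411-104214443, the Serpina3g stretch chr12:104236102-104236134, the Serpina3i stretch chr12:104263008-104263040 and the Serpina3n stretch chr12:104406573-104406605, all on the plus strand, and the Serpina3c stretch is chr12:104153972-104154004 on the minus strand. Counted from 1 at the 5′ end of the 9 bases and relative to Serpina3g, Serpina3f carries C5T, which leaves TTCNNNGAA intact, and Serpina3n and Serpina3c carry C3A, which breaks it. TTCNNNGAA was thus matched in Serpina3f, Serpina3g and Serpina3i and not in Serpina3n or Serpina3c. Over 32851 RefSeq windows of the same length, 8.3% held it on either strand. Over aligned bases, the windows of Serpina3f, Serpina3i, Serpina3c and Serpina3n were 83.7, 79.7, 72.1 and 69.6% identical to that of Serpina3g. Matches in windows so alike are not independent of each other, so their number set against such a share is no measure of enrichment. The NF-κB motif was matched in Serpina3g and Serpina3i (8.46% of windows), TTC and GAA 4 bases apart in Serpina3i (6.95%), a match that does not overlap the first, and the C/EBP motif TTGCNNAA at 2 places in Serpina3f (10.8%). A pair of GAAA words 2 bases apart (3.44% of windows) and TGANTCA (7.81%) were matched in none of these windows. A match is a description of letters and not a binding site, and a missing match says only that those letters are not in this window. Serpina3h and Serpina3m had no window, and a link of these letters to the RNA levels was not tested.

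The first question of the design is what T cell supernatant does to tendon cells. With both supernatants and in cells of both ages, each member was higher than in media, and the 3 largest log2 differences with adult supernatant were those of Serpina3f, Serpina3g and Serpina3i. Summed over the 6 members, the level was 230.3, 326.4 and 240.3 CPM in neonatal cells with neonatal supernatant and 1163, 1215 and 1240 CPM with adult supernatant, against 21.3, 16.7 and 18.54 CPM in media. In adult cells the sum was 1264, 1289 and 842.1 CPM with neonatal supernatant and 1736, 1365 and 1875 CPM with adult supernatant, against 65.53, 87.13 and 77.72 CPM in media. No library with supernatant overlapped the media libraries of its age, and the sum was 14 and 64.3 times the media level in neonatal cells and 14.6 and 21.6 times in adult cells, with neonatal and adult supernatant in that order.

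All 6 members passed the test (limma on log2 CPM, Benjamini-Hochberg adjusted p under 0.05 over all genes) as higher with neonatal supernatant in neonatal cells, where 10.7% of all genes did (7.62% were lower). That count was 5 when any of the libraries compared was left out, since Serpina3m then lost its call. All 6 passed as higher with adult supernatant in neonatal cells (28.3% of all genes) and in adult cells (28.2%, of 52% called in either direction). With neonatal supernatant in adult cells 5 of 5 tested members passed (16.1% of all genes), and Serpina3m was not tested there because it is in the table only through that group. The median log2 difference of the tested members was 3.12 and 5.44 in neonatal cells and 4.04 and 4.80 in adult cells, for neonatal and adult supernatant in that order, against 0.03 to 0.07 over all genes. The members were selected on earlier results of these libraries, in which Serpina3i stood among the largest rises with neonatal supernatant in adult cells, and on passing the table's minimum level, so these counts describe a responding cluster and are no independent evidence that it responds, and the supernatant comparisons of an age share their media libraries.

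**Figure D1:**
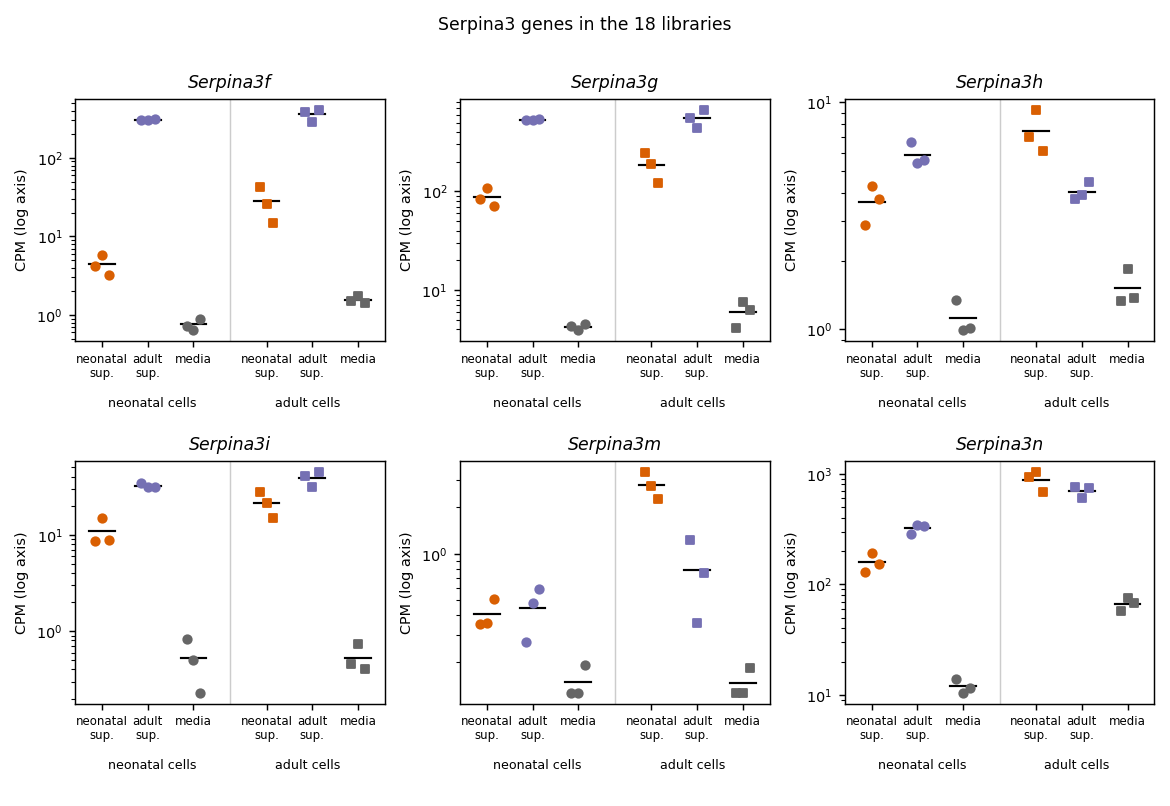
CPM of each of the 6 genes in the 18 libraries, on log axes, with neonatal cells left and adult cells right in each panel; points are libraries and short lines group means (n = 3). In each panel the 3 libraries of both supernatants lie above the 3 media libraries of the same cell age.

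Serpina3n, a secreted inhibitor that in mice blocks granzyme B, cathepsin G and neutrophil elastase, was the most abundant member in media. Its level was 130.6, 192.5 and 153.1 CPM in neonatal cells with neonatal supernatant and 286.9, 343.5 and 340.2 CPM with adult supernatant, against 13.94, 10.53 and 11.65 CPM in media. In adult cells it was 936.5, 1039 and 681.1 CPM with neonatal supernatant and 751.7, 601.2 and 740.1 CPM with adult supernatant, against 57.99, 75.12 and 67.99 CPM in media. Supernatant and media libraries did not overlap. The rise was 13.1-fold with neonatal supernatant in neonatal cells (log2 difference 3.71 ± 0.16 SE, adjusted p = 1.02e-10 by limma) and 27-fold with adult supernatant (4.75 ± 0.16, adjusted p = 1.06e-12). In adult cells it was 13.1-fold (3.71 ± 0.16, adjusted p = 1.37e-10) and 10.4-fold (3.38 ± 0.16, adjusted p = 3.45e-11).

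Serpina3g, known as Spi2A, stays inside the cell and in mice inhibits lysosomal cysteine proteases such as cathepsin B. It stood at 83.59, 108.4 and 70.91 CPM in neonatal cells with neonatal supernatant and at 532.5, 529.4 and 548 CPM with adult supernatant, against 4.319, 3.909 and 4.557 CPM in media. Adult cells had 246.3, 190.1 and 123 CPM with neonatal supernatant and at 556.7, 440.5 and 674.4 CPM with adult supernatant, against 4.118, 7.583 and 6.334 CPM in media. The 3 conditions formed separate, non-overlapping steps in cells of both ages. The log2 difference from media was 4.34 ± 0.24 (adjusted p = 1.92e-09 by limma) and 6.98 ± 0.24 (adjusted p = 1.06e-12) in neonatal cells with neonatal and adult supernatant, and 4.94 ± 0.24 (adjusted p = 4.52e-10) and 6.56 ± 0.24 (adjusted p = 2.31e-12) in adult cells.

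Serpina3f lies next to Serpina3g among the measured genes of the cluster and had the widest range of the 6 as a ratio of its highest to its lowest CPM. It was at 4.236, 5.828 and 3.192 CPM in neonatal cells with neonatal supernatant and at 302.4, 304.8 and 313.6 CPM with adult supernatant, against 0.7323, 0.6357 and 0.8974 CPM in media. In adult cells it was at 43.19, 26.13 and 14.65 CPM with neonatal supernatant and at 382.5, 287.6 and 410.5 CPM with adult supernatant, against 1.498, 1.727 and 1.427 CPM in media. Each condition again stood clear of the others within an age. Adult supernatant raised it by 8.68 ± 0.29 log2 units in neonatal cells (adjusted p = 9.62e-13 by limma) and by 7.85 ± 0.29 in adult cells (adjusted p = 2.7e-12), and neonatal supernatant by 2.52 ± 0.29 (adjusted p = 7.95e-06) and 4.04 ± 0.29 (adjusted p = 2.85e-08).

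Serpina3i, a less studied coding member, was close to absent in media and reached up to 44.8 CPM with supernatant. It was at 8.683, 15.02 and 8.877 CPM in neonatal cells with neonatal supernatant and at 34.19, 30.99 and 31.55 CPM with adult supernatant, against 0.8291, 0.504 and 0.2307 CPM in media. Adult cells held it at 27.41, 21.58 and 14.96 CPM with neonatal supernatant and at 40.51, 31.61 and 44.8 CPM with adult supernatant, against 0.4581, 0.7311 and 0.4076 CPM in media. No supernatant library fell below 8 CPM and no media library reached 1 CPM. The log2 differences were 4.52 ± 0.37 (adjusted p = 1.85e-07 by limma) and 6.13 ± 0.37 (adjusted p = 7.71e-10) in neonatal cells, and 5.33 ± 0.37 (adjusted p = 2.26e-08) and 6.23 ± 0.37 (adjusted p = 4.69e-10) in adult cells, for neonatal and adult supernatant in that order. The rise with neonatal supernatant in adult cells was among the results that the members were selected on. Its p-value is therefore no independent evidence of that rise, and the adult-cell comparisons share their media libraries.

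Serpina3h, which RefSeq lists as a transcribed pseudogene, moved least among the members with a firm call. It was at 2.872, 4.286 and 3.756 CPM in neonatal cells with neonatal supernatant and at 6.67, 5.426 and 5.544 CPM with adult supernatant, against 1.352, 0.9905 and 1.017 CPM in media. Adult cells held it at 7.028, 9.267 and 6.122 CPM with neonatal supernatant and at 3.751, 3.917 and 4.464 CPM with adult supernatant, against 1.34, 1.841 and 1.375 CPM in media. Its log2 differences were 1.69 ± 0.24 (adjusted p = 6.66e-05 by limma) and 2.40 ± 0.24 (adjusted p = 3.14e-07) in neonatal cells and 2.29 ± 0.24 (adjusted p = 1.97e-06) and 1.42 ± 0.24 (adjusted p = 8.45e-05) in adult cells, for neonatal and adult supernatant in that order.

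Serpina3m was the rarest member. In estimated reads it had 4, 4 and 5 in neonatal cells with neonatal supernatant and 2, 6 and 8 with adult supernatant, against 0, 0 and 1 in media. In adult cells it had 48, 33 and 33 reads with neonatal supernatant and 19, 3 and 9 with adult supernatant, against 0, 0 and 1 in media. The highest group was thus adult cells with neonatal supernatant, at 3.38, 2.742 and 2.272 CPM, clear of all other libraries. Over that group it had 114 reads, against 31 with adult supernatant and 1 in media, which is a description, since the gene is in the table only through that group. With adult supernatant the ratio to media of reads pooled over 3 libraries was 35.5 in adult cells (exact interval 5.92 to 1450, counting error only; adjusted p = 0.000991 by limma on the deposited values, and 0.0729 with quantile normalization, where the call was lost) and 16.5 in neonatal cells (2.56 to 692; adjusted p = 0.016). With neonatal supernatant in neonatal cells it was 13.4 (2.01 to 568; adjusted p = 0.0497), and that last call was lost when any 1 of the 6 libraries compared was left out (adjusted p = 0.056 to 0.134). It was also lost with TMM scaling (adjusted p = 0.0578 by limma), quantile normalization (0.515), a pseudocount of 1 CPM (0.306) and a fit on the compared groups alone (0.0906). The call with adult supernatant in neonatal cells was lost without media library 2 (0.0502) or adult-supernatant library 3 (0.0707), without both high-interferon media libraries (0.0563) and with a pseudocount of 1 CPM (0.36, adjusted p = 0.142), and with quantile normalization its log2 difference was -0.06 (0.94), against 1.55 as deposited.

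**Figure D2:**
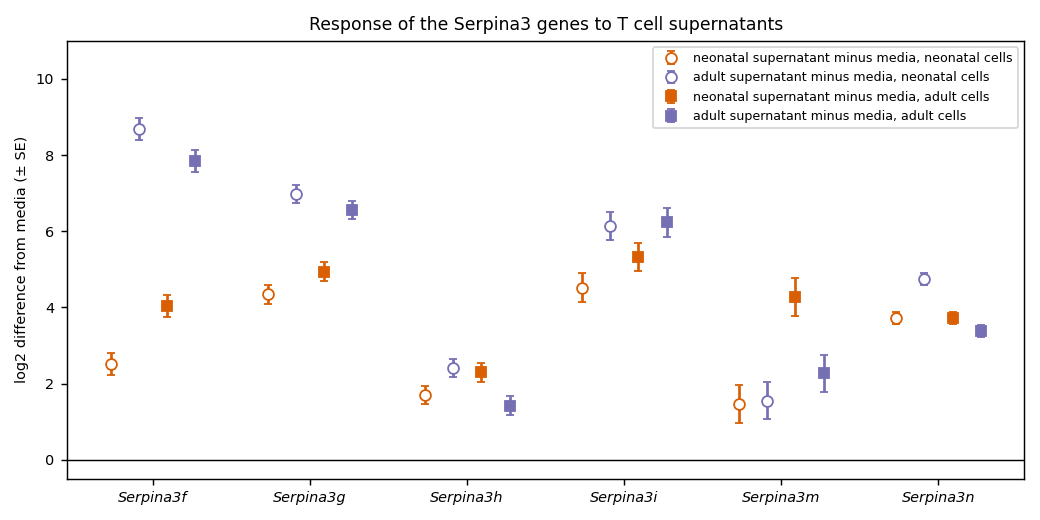
Log2 difference from media ± SE of the 6 genes, from the fit across all 18 libraries; circles are neonatal cells, squares adult cells, orange neonatal supernatant and violet adult supernatant. Serpina3f spans 2.52 to 8.68 across the 4 comparisons and Serpina3n 3.38 to 4.75.

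Markers of other cells were set beside these values. The 5 of 10 neutrophil and mast cell markers with a row (Ly6g, S100a8, Mpo, Camp and Kit) summed to 2.39 to 5.47 CPM in neonatal cells with neonatal supernatant, 16.5 to 24.7 CPM with adult supernatant and 0.81 to 1.33 CPM in media, and to 6.15 to 10.2, 26.7 to 35 and 1.55 to 2.04 CPM in the same conditions of adult cells. In media, Ly6g and S100a8 were under the level of 3 reads in neonatal cells, and so were Ly6g, S100a8 and Camp in adult cells. The 5 of 11 T cell markers with a row summed to 3.65 to 7.92 CPM in neonatal cells with neonatal supernatant, 11.9 to 13.6 CPM with adult supernatant and 2.68 to 4.95 CPM in media, and to 6.05 to 8.66, 8.31 to 27.2 and 2.29 to 4.03 CPM in adult cells. The 9 of 11 macrophage markers with a row summed to 59.1 to 92.7, 48.4 to 61.3 and 39.5 to 61 CPM in neonatal cells and to 91.1 to 118, 65.3 to 75.6 and 102 to 127 CPM in adult cells, in the same order, and Lyz2 alone held 77.87 to 99.54 CPM of the sum in adult cells in media. Of these 9 genes, 3 and 6 were called higher with neonatal and adult supernatant in neonatal cells and 3 and 3 in adult cells. With adult supernatant 1 was lower in cells of each age, and with neonatal supernatant 0. Over all genes 10.7 and 28.3% were higher and 7.62 and 19.5% lower in neonatal cells. The shares in adult cells were 16.1 and 28.2% higher and 11.2 and 23.9% lower. The 3 of 9 with adult supernatant in adult cells lie near the share of 28.2%. The 7 endothelial markers summed to 147 to 194 CPM in neonatal and 202 to 248 CPM in adult cells, most of it Eng. In media and with adult and neonatal supernatant, 5, 4 and 5 of them were lower in neonatal than in adult cells and 0 higher. Over all genes 12, 5.86 and 12.3% were lower. The 4 of 5 Schwann cell markers with a row summed to 8.65 to 41.7 CPM. The 10 tendon fibroblast markers summed to 22300 to 24700 CPM in neonatal cells with neonatal supernatant, 12700 to 13300 CPM with adult supernatant and 28500 to 32000 CPM in media, and to 20900 to 27700, 9720 to 11300 and 29200 to 31000 CPM in adult cells. Col1a1 and Col1a2 made up most of these sums. Of the 10, 1 and 2 were called higher and 3 and 6 lower in neonatal cells, with neonatal and adult supernatant in that order. In adult cells 2 and 1 were higher and 5 and 7 lower. The counts of higher genes lie near or below the shares of all genes given above. Dcn, for 1, was at 242.6 to 316.7 CPM with adult supernatant in neonatal cells, against 42.36 to 83.06 CPM in media. The part of these differences in the Serpina3 results was not tested, and in bulk RNA fewer cells of a type and less RNA per cell cannot be told apart.

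The second question is whether supernatants of neonatal and adult T cells differ in effect. They did so unevenly across the cluster. The sample titles name a supernatant by T cell age only, so that age and the preparation of the supernatant cannot be told apart here. In neonatal cells 5 of 6 members were lower with neonatal than with adult supernatant, where 18.7% of all genes were (32.4% in either direction). In adult cells 2 of 5 tested members were lower (13.5% of all genes) and 1 was higher (15.1%), where 28.6% were called in either direction. Serpina3f differed most. In neonatal cells its values of 3.192 to 5.828 CPM with neonatal supernatant stood against 302.4 to 313.6 CPM with adult supernatant, 71.6-fold lower (log2 difference -6.16 ± 0.29, adjusted p = 3.09e-10 by limma). In adult cells 14.65 to 43.19 CPM stood against 287.6 to 410.5 CPM, 14-fold lower (-3.81 ± 0.29, adjusted p = 4.12e-08).

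Serpina3g, the neighbour, was 6.22-fold lower with neonatal supernatant in neonatal cells (-2.64 ± 0.24, adjusted p = 2.99e-07 by limma) and 3.06-fold lower in adult cells (-1.61 ± 0.24, adjusted p = 5.09e-05). The level of Serpina3f relative to Serpina3g therefore changed with the supernatant. The ratio of their CPM was 0.0498 ± 0.00444 with neonatal supernatant, 0.572 ± 0.0039 with adult supernatant and 0.176 ± 0.0181 in media in neonatal cells (SD, n = 3), and 0.144 ± 0.0287, 0.65 ± 0.0392 and 0.272 ± 0.0792 in adult cells. The 3 conditions did not overlap in neonatal cells or in adult cells.

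Serpina3i was lower with neonatal supernatant by 1.62 ± 0.37 log2 units in neonatal cells (adjusted p = 0.00346 by limma). In adult cells its libraries did not overlap either, but the difference of -0.90 ± 0.37 was not called (adjusted p = 0.0828), and it was called when a pseudocount of 1 CPM was added (-0.87, adjusted p = 0.00861) or with array weights or a fit on the compared groups alone (adjusted p = 0.0476 and 0.0275). Serpina3n was lower with neonatal supernatant in neonatal cells (-1.04 ± 0.16, adjusted p = 0.000128), while in adult cells the libraries overlapped and the difference of 0.33 had an interval of -0.01 to 0.67 (adjusted p = 0.147). Without neonatal-supernatant library 3 of the adult cells, that difference became 0.51 (adjusted p = 0.0285).

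Serpina3h went opposite ways in the 2 ages. With neonatal supernatant it was lower in neonatal cells (-0.71 ± 0.24, adjusted p = 0.0313 by limma) and higher in adult cells (0.87 ± 0.24, adjusted p = 0.0105), without overlap in either. The call in adult cells was lost without neonatal-supernatant library 2 (0.70, adjusted p = 0.0618). The call in neonatal cells was lost when any of 5 libraries was left out, neonatal-supernatant library 1 or 3 (-0.55 and -0.74, adjusted p = 0.131 and 0.0612) or adult-supernatant library 1, 2 or 3 (-0.61, -0.76 and -0.75, adjusted p = 0.109, 0.0526 and 0.0609), and with quantile normalization (-0.41, adjusted p = 0.228). Serpina3m overlapped between the supernatants in neonatal cells (-0.09 ± 0.49, adjusted p = 0.913). Serpina3c, the measured gene outside the member list, was at 16.27, 23.06 and 10.25 CPM with neonatal and 5.085, 5.292 and 6.368 CPM with adult supernatant in adult cells (1.50 ± 0.39, adjusted p = 0.00726). In neonatal cells it was at 3.22, 3.949 and 4.838 CPM with neonatal and 3.207, 3.357 and 4.569 CPM with adult supernatant (0.11 ± 0.39, adjusted p = 0.862).

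**Figure D3:**
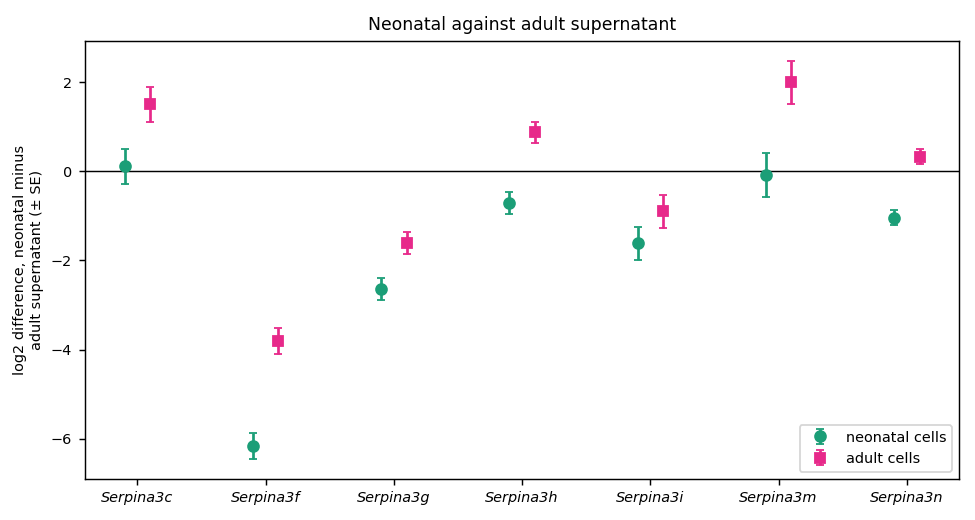
Log2 difference between neonatal and adult supernatant ± SE for 7 measured Serpina3 genes, in neonatal cells (green circles) and adult cells (pink squares). Serpina3f is lowest in both, at -6.16 and -3.81, and in adult cells Serpina3c, Serpina3h, Serpina3m and Serpina3n lie above 0, of which Serpina3n was not called.

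The shift between members showed in the make-up of the cluster's RNA. With adult supernatant Serpina3f made up 25.5% ± 0.477 of the summed CPM in neonatal cells and 21.7% ± 0.52 in adult cells (SD, n = 3). With neonatal supernatant it made up 1.65% ± 0.281 and 2.39% ± 0.898, and in media 4.03% ± 0.727 and 2.03% ± 0.229. Serpina3n made up 59.8% ± 3.57 of the sum with neonatal supernatant, 26.8% ± 1.89 with adult supernatant and 63.8% ± 1.44 in media in neonatal cells, and 78.5% ± 3.84, 42.3% ± 2.45 and 87.4% ± 1.14 in adult cells. Per kilobase of transcript, Serpina3g was above Serpina3n in neonatal cells with adult supernatant, at 297.6 ± 5.54 against 156.7 ± 15.4 CPM per kilobase. In adult cells with adult supernatant the ranges of Serpina3g, 244 to 374, and Serpina3n, 291 to 364 CPM per kilobase, overlapped. In the other 4 groups Serpina3n was above Serpina3g in each library.

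**Figure D4:**
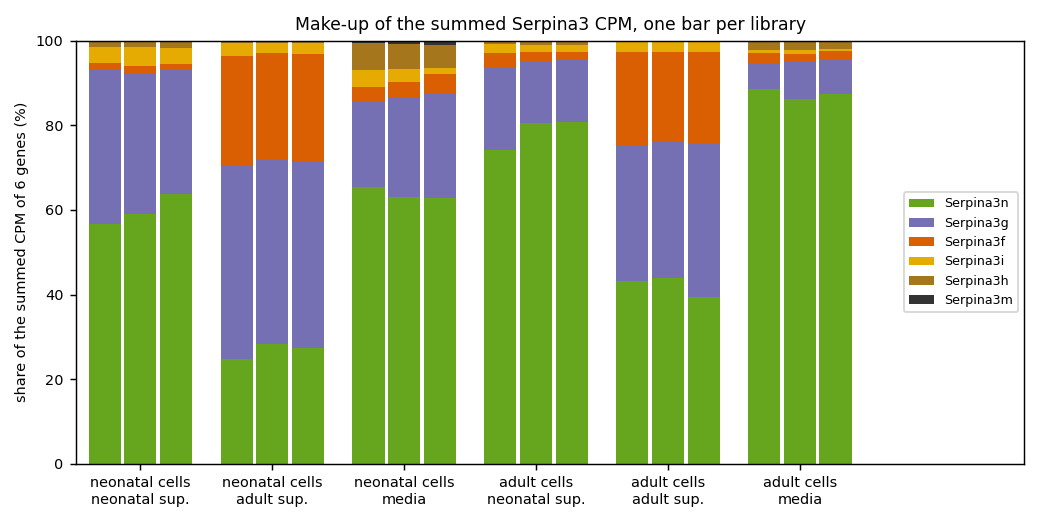
Share of each gene in the summed CPM of the 6 genes, one bar per library. Serpina3f takes 21.1 to 26% of the bars with adult supernatant and at most 4.84% of all other bars.

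Sums over close relatives do not depend on how reads were split between them, and they cannot show how the members within a sum differ. Serpina3f and Serpina3g together were at 92.05 ± 20.4 CPM with neonatal supernatant, 843.6 ± 15.68 with adult supernatant and 5.017 ± 0.456 in media in neonatal cells (SD, n = 3), and at 214.5 ± 75.94, 917.4 ± 179.4 and 7.562 ± 1.855 in adult cells. Serpina3h and Serpina3i together were at 14.5 ± 4.198, 38.12 ± 2.399 and 1.641 ± 0.4835 CPM in neonatal cells and at 28.79 ± 6.91, 43.02 ± 6.956 and 2.051 ± 0.4516 CPM in adult cells, in the same conditions. In adult cells that sum was lower with neonatal than with adult supernatant, the opposite of Serpina3h alone. With Serpina3m added to these, the supernatants overlapped in adult cells, at 23.35 to 37.81 CPM with neonatal and 35.88 to 50.02 CPM with adult supernatant. Serpina3f, Serpina3g, Serpina3h and Serpina3i together were at 106.5 ± 24.21, 881.7 ± 15.01 and 6.658 ± 0.5981 CPM in neonatal cells and at 243.3 ± 82.67, 960.5 ± 186.3 and 9.613 ± 2.235 CPM in adult cells. In the transcripts, 60.2% (Serpina3h) to 78.4% (Serpina3n) of a member's 31-base words occurred in no other gene. Serpina3f shared 15.3% of its words with Serpina3g, Serpina3h shared 25.8% with Serpina3i, and Serpina3m shared 24.5% with Serpina3k, which was not analysed here, so levels of single members are less certain than the sums. Serpina3h also shared 23.3% with Serpina3g and 17.3% with Serpina3f, and Serpina3i shared 12.1% with Serpina3g. The sum of Serpina3h and Serpina3i thus stays exposed to reads of the far more abundant Serpina3g, and the size of that part was not tested.

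The next question is whether the age of the tendon cells matters. Serpina3n was lower in neonatal than in adult cells in each of the 3 conditions, without overlap. The difference was 5.57-fold in media (-2.48 ± 0.16, adjusted p = 1.87e-08 by limma), 2.15-fold with adult supernatant (-1.11 ± 0.16, adjusted p = 0.000122) and 5.56-fold with neonatal supernatant (-2.48 ± 0.16, adjusted p = 2.38e-08). Serpina3n was the member called with adult supernatant, 1 of 6, where 5.86% of all genes were lower. In media 2 of 6 members were called lower (12% of all genes, and 28.6% in either direction), Serpina3n and Serpina3f. The difference of Serpina3f in media, -1.05 ± 0.29 (adjusted p = 0.0117), was not called without the pair of media libraries with high interferon genes (-0.95, adjusted p = 0.0953), with a pseudocount of 1 CPM (-0.58, adjusted p = 0.116) or with quantile normalization (-0.72, adjusted p = 0.0514). Without adult-cell media library 1, Serpina3g was called lower as well (-0.70, adjusted p = 0.0369, against -0.45 and 0.167 with all libraries).

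With neonatal supernatant, of 5 tested members 4 were lower in neonatal than in adult cells, where 12.3% of all genes were (29.8% in either direction), and Serpina3f was lowest relative to adult cells, by 5.94-fold (-2.57 ± 0.29, adjusted p = 7.01e-06 by limma). Serpina3g was 2.08-fold lower (-1.05 ± 0.24, adjusted p = 0.00269) and Serpina3h 2.05-fold lower (-1.04 ± 0.24, adjusted p = 0.00325). For Serpina3i the libraries overlapped and the difference of -0.98 ± 0.37 was not called (adjusted p = 0.0576). It was called without neonatal-supernatant library 2 of the neonatal cells (-1.24, adjusted p = 0.0329) or library 3 of the adult cells (-1.21, adjusted p = 0.0397), with the replicate number as a block (0.0446), and with a pseudocount of 1 CPM (0.00618), quantile normalization (0.0322), array weights (0.0321) or the compared groups alone (0.0349). Under adult supernatant the intervals for neonatal minus adult cells were -0.83 to 0.40 log2 units for Serpina3f, -0.53 to 0.46 for Serpina3g and -1.05 to 0.53 for Serpina3i, and the 3 genes overlapped between ages. Serpina3h did not overlap there, at 5.426 to 6.67 CPM in neonatal and 3.751 to 4.464 CPM in adult cells, yet was not called (0.54 ± 0.24, adjusted p = 0.127).

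Tests of the difference between differences put these patterns side by side. The rise of Serpina3n with adult supernatant was larger in neonatal than in adult cells by 1.37 ± 0.23 log2 units (adjusted p = 0.00266 by limma), the call of 1 of 6 members where 3% of all genes were called in that direction (4.55% in either). With neonatal supernatant 0 of 5 members had a response that differed by age in limma (0.855% of all genes did, 0.361% in the negative direction), and the interval for Serpina3n was -0.48 to 0.49. The largest such difference, -1.52 ± 0.41 in Serpina3f, had an adjusted p of 0.0942, and was called without neonatal-supernatant library 3 of the adult cells (-1.92, adjusted p = 0.00744), with quantile normalization (0.0286) and with a pseudocount of 1 CPM (0.0306). The contrast of neonatal against adult supernatant, a test added after the data had been seen, was more negative in neonatal than in adult cells for 3 of 5 tested members (1.16% of all genes, and 1.54% in either direction). These were Serpina3f (-2.36 ± 0.41, adjusted p = 0.00643), Serpina3h (-1.57 ± 0.34, adjusted p = 0.0247) and Serpina3n (-1.37 ± 0.23, adjusted p = 0.00533). The Serpina3h call was lost without neonatal-cell library 1 or 3 with adult supernatant (adjusted p = 0.0795 and 0.0523), neonatal-cell library 1 with neonatal supernatant (0.0723), adult-cell library 1 with adult supernatant (0.0718) or adult-cell library 2 with neonatal supernatant (0.0847), and with quantile normalization (0.0557). Serpina3g, at -1.02 ± 0.33 (adjusted p = 0.152), was called without neonatal-supernatant library 3 of the adult cells (-1.29, adjusted p = 0.0361).

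The 3 adult-cell libraries with neonatal supernatant spread more than the other groups for several members. Serpina3f was at 43.19, 26.13 and 14.65 CPM in libraries 1, 2 and 3, and Irf1, a transcription factor induced by interferon-gamma, was at 118.3, 91.4 and 47.93 CPM in the same libraries. The mean of the 20 type I interferon genes there was 3.39, 4.12 and 1.84 log2 CPM. Whether these move together for a reason of the culture was not tested.

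Genes that carry cytokine signals were described from lists chosen with earlier results known. Of 18 receptors and adaptors, 12 were higher and 1 lower with neonatal supernatant in neonatal cells and 13 higher and 2 lower with adult supernatant, with medians of 0.87 and 1.36 log2 units. In adult cells 11 and 13 were higher and 1 and 1 lower, with medians of 0.67 and 0.64. The shares of all genes that were higher, 10.7 and 28.3% in neonatal and 16.1 and 28.2% in adult cells, apply to these and the following lists. Il4ra, the chain shared by the receptors for IL-4 and IL-13, was higher by 2.62 ± 0.11 and 3.15 ± 0.11 in neonatal cells and by 2.92 ± 0.11 and 3.37 ± 0.11 in adult cells. Osmr, the receptor chain for oncostatin M, was higher by 1.30 ± 0.08 and 1.74 ± 0.08 in neonatal cells and by 0.96 ± 0.08 and 1.52 ± 0.08 in adult cells. Il13ra1 and Il1rap, chains of the IL-13 and IL-1 receptors, also passed in all 4 comparisons. These 4 genes were named for their smallest p with adult supernatant in adult cells, so passing there follows from that choice. Most genes named from the following lists were chosen in the same way.

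Of 19 measured transcription factors and feedback genes, 13 and 14 were higher in neonatal cells and 14 and 15 in adult cells, with neonatal and adult supernatant in that order, and at most 1 was lower. With neonatal against adult supernatant 12 of them were lower in neonatal cells, with 1 higher, and 13 in adult cells, with none higher. For this contrast 18.7% of all genes were lower and 13.7% higher in neonatal cells, and 13.5% lower and 15.1% higher in adult cells. Irf1 was at 25.59, 26.08 and 29.19 CPM with neonatal supernatant and 454.6, 453.9 and 463.9 CPM with adult supernatant in neonatal cells, a difference of -4.09 ± 0.21 (adjusted p = 6.74e-10 by limma), and the difference in adult cells was -2.76 ± 0.21 (adjusted p = 4.39e-08). The difference between these 2 values, -1.33 ± 0.30 (adjusted p = 0.0345), was not called without the trend (0.0826), in the compared groups alone (0.072), or without adult-cell libraries 1, 2 or 3 with adult supernatant or 2 with neonatal supernatant, or neonatal-cell libraries 1, 2 or 3 with adult supernatant or 1 or 2 with neonatal supernatant (0.0519 to 0.098).

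Stat3, which transmits IL-6 family signals, changed less and with both supernatants, by 0.58 ± 0.08 and 1.09 ± 0.08 in neonatal cells and by 0.41 ± 0.08 and 1.09 ± 0.08 in adult cells. Socs3, the feedback inhibitor of that pathway, was higher by 3.41 ± 0.19 and 5.40 ± 0.19 in neonatal cells and by 2.98 ± 0.19 and 4.97 ± 0.19 in adult cells. Cebpd, a transcription factor of the acute phase, was higher by 2.14 ± 0.16 and 2.95 ± 0.16 in neonatal and by 1.95 ± 0.16 and 2.59 ± 0.16 in adult cells. Nfkbiz, a nuclear cofactor of NF-κB, was higher by 1.96 ± 0.15 and 3.92 ± 0.15 in neonatal and by 1.89 ± 0.15 and 3.37 ± 0.15 in adult cells. Jak1, a kinase of cytokine receptors, was higher by 0.79 ± 0.05 and 1.15 ± 0.05 in neonatal and by 0.67 ± 0.05 and 1.17 ± 0.05 in adult cells. These 5 genes passed in each of the 4 comparisons with media.

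Of 19 measured acute phase and antimicrobial genes, which include S100a8 of the neutrophil list, 14 were higher and 0 lower with neonatal supernatant in neonatal cells by limma, and 17 were higher and 1 lower with adult supernatant. In adult cells 15 and 15 were higher, and 0 and 2 lower. Medians were 2.12 and 4.13 log2 units in neonatal and 1.97 and 3.30 in adult cells. Cp, the copper carrier ceruloplasmin, was higher by 4.37 ± 0.34 and 6.76 ± 0.34 in neonatal and by 4.44 ± 0.34 and 5.54 ± 0.34 in adult cells. Ptx3, a soluble pattern recognition protein, reached 1751 to 2664 CPM with neonatal and 3505 to 3803 CPM with adult supernatant in neonatal cells, against 245.9 to 275.1 CPM in media. Mt1 and Mt2, metal-binding metallothioneins, passed as higher in all 4 comparisons.

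Of 21 proteases listed as described or possible targets of Serpina3 inhibitors, 10 were measured. Granzymes A and B, cathepsin G and neutrophil elastase were looked for and had no row. Of the 10, 4 were higher with each supernatant in neonatal cells and 7 with each in adult cells, with 0 or 1 lower. Over all genes 10.7 and 28.3% were higher in neonatal and 16.1 and 28.2% in adult cells, with neonatal and adult supernatant, and the 4 of 10 with adult supernatant in neonatal cells lie near that share. Ctsb, the lysosomal protease cathepsin B, was at 1009, 1014 and 1003 CPM with neonatal and 1037, 1070 and 1049 CPM with adult supernatant in neonatal cells, against 741.3, 742.9 and 779.6 CPM in media. Its log2 differences of 0.42 ± 0.04 and 0.48 ± 0.04 in neonatal and 0.57 ± 0.04 and 0.61 ± 0.04 in adult cells were small beside those of Serpina3g. Ctsz, the lysosomal protease cathepsin Z, was higher by 0.19 ± 0.06 and 0.63 ± 0.06 in neonatal and by 0.37 ± 0.06 and 0.59 ± 0.06 in adult cells. Ctsc, cathepsin C, which activates granzymes, was higher in adult cells by 0.75 ± 0.26 and 2.64 ± 0.26, and differed by -0.44 ± 0.26 and 0.63 ± 0.26 in neonatal cells (adjusted p = 0.284 and 0.0602 by limma). Ctsk, cathepsin K, a collagen-degrading protease, was lower with adult supernatant by 0.90 ± 0.08 log2 units in neonatal and by 0.69 ± 0.08 in adult cells, and with neonatal supernatant it was higher in adult cells (0.43 ± 0.08) and not called in neonatal cells (-0.05 ± 0.08, adjusted p = 0.699 by limma).

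Among 21 other measured serpins, 11 were higher and 2 lower with neonatal supernatant in neonatal cells, and 12 higher and 6 lower with adult supernatant. In adult cells 11 and 13 were higher and 1 and 5 lower. Over all genes 10.7 and 28.3% were higher and 7.62 and 19.5% lower in neonatal cells, and 16.1 and 28.2% higher and 11.2 and 23.9% lower in adult cells, and the counts of lower serpins lie near those shares. Serping1, the inhibitor of complement C1, was at 30.76, 51.15 and 19.63 CPM with neonatal and 580, 671.8 and 645.6 CPM with adult supernatant in neonatal cells, against 12.52, 10.24 and 6.221 CPM in media. Like Serpina3n, it rose more with adult supernatant in neonatal than in adult cells, by 2.06 ± 0.38 log2 units (adjusted p = 0.0055 by limma). Serpinb2, an inhibitor of urokinase, was higher by 5.58 ± 0.37 in neonatal and 6.12 ± 0.37 in adult cells with adult supernatant and by 2.02 ± 0.37 and 2.64 ± 0.37 with neonatal supernatant. Serpinh1, the collagen chaperone, was lower in all 4 comparisons, by 0.22 to 0.88 log2 units. Serpine2, an inhibitor of thrombin and other proteases, was lower with adult supernatant by 0.44 ± 0.07 in neonatal and by 1.08 ± 0.07 in adult cells. Serpina12, the measured class A serpin that adjoins the cluster, stayed between 0.1269 and 1.36 CPM. Its 4 calls as higher than in media were all lost with quantile normalization (adjusted p = 0.0921 to 0.555 by limma). With neonatal supernatant in adult cells the call was also lost with a pseudocount of 1 CPM (0.201), without both high-interferon media libraries (0.0586) and without media library 1, 2 or 3 or neonatal-supernatant library 1 or 2 (0.0502 to 0.107), and in neonatal cells with that pseudocount (0.0633) and without neonatal-supernatant library 2 (0.0598).

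Of the 10 measured genes on each side of the cluster, 20 in all, 3 were higher and 3 lower with neonatal supernatant in neonatal cells and 7 higher and 7 lower with adult supernatant. In adult cells 4 and 7 were higher and 3 and 7 lower. Over all genes, 10.7 and 28.3% were higher and 7.62 and 19.5% lower in neonatal cells, and 16.1 and 28.2% higher and 11.2 and 23.9% lower in adult cells. The counts of higher genes lie near those shares. The counts of lower genes lie above them, most so in neonatal cells. Their medians lay between -0.12 and 0.29 log2 units. Bdkrb1, a bradykinin receptor, had the largest rise of the 20 in each of these comparisons, by 3.31 ± 0.50 and 4.93 ± 0.50 in neonatal and by 2.92 ± 0.50 and 4.65 ± 0.50 in adult cells, while Ifi27l2b was lower by 1.28 ± 0.38 and 2.44 ± 0.38 in neonatal and by 1.44 ± 0.38 and 3.02 ± 0.38 in adult cells.

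**Figure D5:**
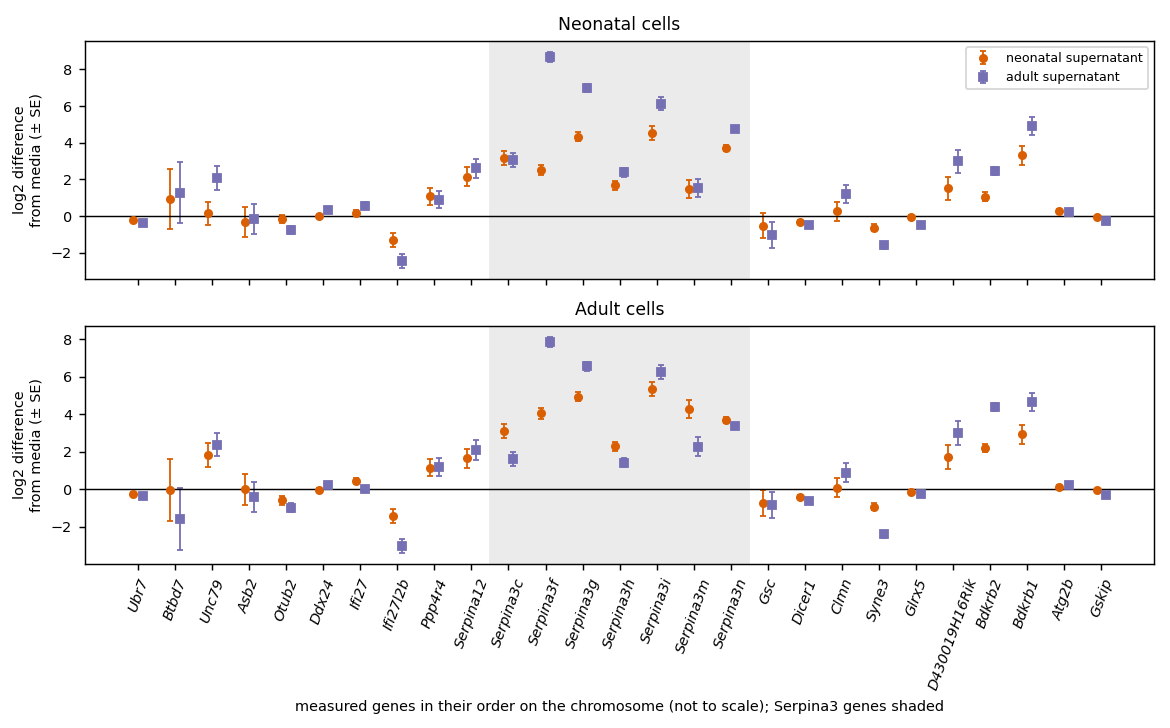
Log2 difference from media ± SE of 27 measured genes in their order along the chromosome (spacing not to scale), neonatal cells above and adult cells below, circles for neonatal and squares for adult supernatant. The 7 Serpina3 genes, shaded, all lie above 0, while the 20 flanking genes scatter on both sides.

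Across the 18 libraries, which share the 6 groups, Serpina3g and Serpina3i were the members most alike (Pearson r = 0.98 of log2 CPM) and Serpina3f and Serpina3m the least alike (0.55). Serpina3i shares 12.1% of its 31-base words with Serpina3g, and the part of this in their likeness was not tested. The genes outside the cluster most like Serpina3n were H6pd (0.980), Prickle1, C3, Tgfbr3 and S1pr3 (0.978 each). Those most like Serpina3i were Pfkl (0.989), Il1rap (0.986), Il13ra2, Cebpd and Ak4 (0.984 each), and those most like Serpina3g were Azin2 and Dse (0.989 each), Errfi1, Timp1 and Socs3 (0.988 each). C3, the central complement component, was at 122.9, 202.2 and 65.47 CPM with neonatal and 450.2, 584.7 and 572.8 CPM with adult supernatant in neonatal cells, against 2.195, 2.954 and 0.8591 CPM in media. In adult cells C3 was at 933.7, 1140 and 750.8 CPM with neonatal and 597.6, 598 and 718.1 CPM with adult supernatant, against 17.91, 21.41 and 14.8 CPM in media.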

How the data were processed

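Poly(A)-selected RNA of 18 libraries was read from both ends. The tools are kallisto (its version: not given in the sources used here), limma 3.56.2 and the build GRCm39, per the submitters' processing notes. The authors deposited log2 CPM for 14391 genes, in which a count of 0 stands at -2.9787 log2 CPM (0.1269 CPM) and each library sums to 999134 to 1001152 CPM. That scaling to the total count makes a level depend on all other genes, and the offset understates fold changes of genes near 0. No raw count was used here, and the count reads given for Serpina3m were estimated from the CPM and a depth at which low values fall on whole reads to within 0.02 reads. That held for 8.13 to 17.2% of low values, against 6.08 to 10.4% at the best other total. Intervals and floors cover counting error only.

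All libraries were fitted as 6 groups with R 4.3.3 and limma 3.58.1 (group means, contrasts, moderated with a trend, two-sided, 12 residual and 4.59 prior degrees of freedom), with Benjamini-Hochberg adjustment over 14391 genes, in 12 comparisons, and the method was tested on simulated data. Intervals of log2 differences are 95% intervals of the moderated fit. A member's p is given where at least 3 libraries outside the higher group held 1 CPM. Sums, shares and ratios carry no test. Lengths and 31-base words (the default word length of kallisto) came from GENCODE M21 on GRCm38, and sequences and neighbours from RefSeq, GRCm38.p6.

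The members and lists were chosen with earlier results of these data known. Named genes are all members, from each list the up to 4 with the smallest p for adult supernatant against media in adult cells, Stat3, Socs3, Nfkbiz, Cebpd and Irf1 (another gene of the rule is not reported here), the other class A serpins, and the 5 genes most correlated with Serpina3n, Serpina3i and Serpina3g. Bdkrb1 and Ifi27l2b were named after their values were seen, and so were the values of C3. Alternatives were TMM scaling, quantile normalization, pseudocounts of 0.1 and 1 CPM, filters, no trend, array weights, the compared groups alone, a replicate block, and leaving out libraries.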

Additional observations from a re-analysis of the deposited data

Results flagged for a closer look

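Of the Serpina3 genes, 3 had responses that differed between neonatal and adult cells by the interaction term of limma, with 3 libraries a group. The rise of Serpina3n with adult supernatant over media was larger in neonatal cells by 1.37 log2 units (adjusted p = 0.00266), and this call held without each of the libraries in turn. The difference between neonatal and adult supernatant was more negative in neonatal than in adult cells for Serpina3f by -2.36 (adjusted p = 0.00643), for Serpina3n by -1.37 (adjusted p = 0.00533) and for Serpina3h by -1.57 (adjusted p = 0.0247). The Serpina3h difference was not called without neonatal-cell libraries 1 or 3 with adult supernatant (-1.48 and -1.61, adjusted p = 0.0795 and 0.0523), neonatal-cell library 1 with neonatal supernatant (-1.41, 0.0723), adult-cell library 1 with adult supernatant (-1.52, 0.0718) or adult-cell library 2 with neonatal supernatant (-1.41, 0.0847), and with quantile normalization (-1.45, 0.0557). The 3 supernatant contrasts were added after the data had been seen.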

How the results depend on the processing

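Over the members and comparisons, 1254 single values were recomputed, of which 1200 kept their direction and side of the threshold, 33 lost a call, 16 gained one, 4 untested values moved and 1 changed sign, Serpina3m with adult supernatant in neonatal cells under quantile normalization (-0.06). A filter of a mean of 3 log2 CPM removed Serpina3h, Serpina3i and Serpina3m, so that 3 members were called in each supernatant-media comparison and between supernatants in neonatal cells, and 4564 genes (6875 without it) with adult supernatant in neonatal cells. For cell age in media, 1 member instead of 2 was called under quantile normalization, a pseudocount of 1 CPM or without both high-interferon media libraries, which also gave 2322 genes instead of 4122. For the interaction with neonatal supernatant, 1 member instead of 0 was called under quantile normalization and the pseudocount of 1 CPM, and 0 to 1 with a library left out. That interaction called 123 genes, against 29 without the trend, 209 with array weights, 39 in the compared groups alone, 59 without the high-interferon libraries and 33 to 228 with a library left out. The interaction with adult supernatant called 655, against 1242 with array weights, 360 without the high-interferon libraries and 406 to 745 with a library left out, and the interaction with neonatal against adult supernatant 221, against 520 and 120 to 333. The cause of these changes was not tested. TMM scaling set the sums in neonatal cells with adult supernatant at 1159 CPM for the 6 members (1206 as deposited), 810.7 for Serpina3f and Serpina3g, and 847.3 with Serpina3h and Serpina3i added.

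Replicate numbers did not pair the libraries (correlation of same-numbered deviations -0.16 to 0.22, median -0.01), and the replicate block cost Serpina3m its call with neonatal supernatant in neonatal cells (1.46, adjusted p = 0.0566) and gave Serpina3i one for cell age with neonatal supernatant (-0.98, adjusted p = 0.0446). Quantile normalization moved the median of all genes to -0.10 in adult and -0.11 in neonatal cells given adult supernatant (0.03 and 0.07 as deposited). It put the share of calls that were higher at 41.7 and 39.8% there (54.1 and 59.3% as deposited). Other such shifts were 46.5 from 59.1% and 48.4 from 58.5% with neonatal supernatant in adult and neonatal cells, 61.4 from 42.3% between supernatants in neonatal cells, and 56.2 (52.6 under TMM) from 71.5% for cell age with adult supernatant. Depth limits Serpina3m, whose media libraries held 0 or 1 read.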
